A study of Rattus norvegicus with 6 samples.

Results

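RK3E cells are rat kidney epithelial cells that an adenovirus gene made immortal, and GLI1 is the zinc finger protein through which Hedgehog signals switch on genes. By the labels, RK3E cells were transfected by lipofection with a GLI1 expression construct, and foci of transformed cells were picked and kept as lines. The comparison described here sets clone II, 1 such line, against parental RK3E cells grown in the same serum-containing medium. Members were the arrays whose titles name clone II (2 arrays) or the parental line (2 arrays), 4 of the 6 arrays of the series. The remaining 2 GLI1 arrays, 1 titled clone I and 1 with no clone named, entered only the estimate of spread and a second comparison with clone II. Because clone II is 1 line, what is common to GLI1-transformed cells and what belongs to that line cannot be told apart from these 4 arrays.

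In the Hedgehog pathway a secreted ligand relieves the inhibition of the membrane protein Smo, and the signal ends in GLI transcription factors, of which GLI1 is mainly an activator and is itself switched on by the pathway. Hhip, a membrane protein that captures the ligand, is a classic target. Sonic hedgehog signalling from epithelium patterns the mesenchyme of the developing kidney and urinary tract, and excess GLI activity is known from medulloblastoma and basal cell carcinoma. The study's stated interest was the set of genes changed by GLI1 transformation, to be set against desmoplastic medulloblastomas. The tumours were not analysed here.

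Signals were 1-colour Affymetrix intensities, given below as log2 signal, and the level of 1 probe set is not comparable with that of another. Array medians were 580 and 568 for clone II and 647 and 697 for parental cells. The ratio of 3' to 5' GAPDH signal, which rises as RNA or labelled cRNA shortens, was 7.52 on clone II replicate 1 and 3.66 on parental replicate 1, against 1.39 and 1.43 on the replicates numbered 2. Its part in the results was not tested directly, and counts without both high-ratio arrays are given with the main groups of genes. Those counts set 1 clone II array against 1 parental array, with the spread estimated from the 2 other GLI1 arrays only. A call kept there is not replicated, and a call lost there is not a sign of RNA quality. Leaving out 1 clone II or parental array likewise leaves 1 array in that group. Log2 signals correlated at 0.926 between the clone II arrays, 0.930 between the parental arrays and 0.887 to 0.902 between the groups, across probe sets that are not independent replicates. Of 7 markers of fibroblasts, all on the array, summed signals were 9306 and 7391 in clone II against 131764 and 118197 in parental cells. Col1a1, Col3a1 and Ogn carried the parental sum, Pdgfra and Fbln1 were not called, and Dcn and Lum lay below the signal filter. Markers of kidney tubule (2 of 12 above the signal filter, a mean log2 of 8.33 over all arrays), endothelium (1 of 7 on the array) and immune cells (3 of 8) lay mostly below it in both groups. Of 6 markers of simple epithelium only Krt8 and Epcam passed the filter; the keratin genes Krt18 and Krt19 and the E-cadherin gene Cdh1 lay below it in cells labelled as epithelial.

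Gli1 was high in clone II and dim in parental cells. Its log2 signal was 11.77 and 12.17 on the clone II arrays and 5.17 and 6.50 on the parental arrays, with means of 11.97 ± 0.28 (SD, n = 2) and 5.84 ± 0.94 (SD, n = 2). No clone II value came near a parental one. The rise was 70.3-fold (log2 6.13, SE 0.56, adjusted p = 0.000676) by limma's moderated test, in which p was adjusted over all 18625 tested probe sets by the Benjamini-Hochberg method. The dim parental signal weighs on the fold, which was 44.3 when 32 was added to each signal before the log. Gli1 counts as a check of the labels only so far as its probe set detects the introduced transcript, on which the labels are silent.

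Hhip was the other Hedgehog component that rose. Its log2 signal was 10.76 and 11.22 on the clone II arrays and 7.68 and 7.17 on the parental arrays, 11.8-fold (log2 3.56, SE 0.38, adjusted p = 0.00115), and the groups did not overlap. Of 15 listed Hedgehog genes, all on the array, 11 passed the signal filter. Among these 2 rose and 0 fell by limma, where 5.32% of all 10240 tested genes rose and 6.41% fell. Gli1 and Hhip lay below the filter value of 8.33 on both parental arrays and passed it through the GLI1 arrays. Gli1 is also the gene named for the construct. The count does not describe the whole list. At an unadjusted p under 0.05 the counts were also 2 and 0. Without both arrays of high GAPDH ratio, so 1 array against 1, the log2 differences were 5.67 for Gli1 and 4.04 for Hhip. Both genes stayed higher in clone II whichever 1 array was left out.

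The other 9 tested components did not pass. For the signal transducer Smo the log2 difference was -0.33 (95% interval -0.80 to 0.14, adjusted p = 0.368), and for the second GLI factor gene Gli2 it was 0.21 (95% interval -0.28 to 0.70, 0.593). Sufu, which holds GLI proteins in the cytoplasm, gave -0.47 (0.527), and Boc, a co-receptor, gave -0.67 (0.322). The ligand releaser Disp1 gave -0.64 (0.361), and the ligand gene Dhh 1.09 (0.207, with 8.43 and 8.41 on the clone II arrays and 7.89 and 6.77 on the parental arrays). Stk36 gave -0.22 (0.805), Kif7 -0.03 (0.958) and Spop 0.30 (0.609). The differences of Stk36 and Kif7 turn positive when arrays are centred on their medians. Over the 11 genes the median log2 difference was -0.03, against 0.06 over all genes, and it was 0.20 with median centring.

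Across the array, 743 of 18625 probe sets rose in clone II (3.99%) and 1069 fell (5.74%), 1812 in all (9.73%). Both clone II arrays lay above both parental arrays for 5216 probe sets (28.0%) and below both for 5427 (29.1%). The falls were more often large: 362 fallen and 176 risen probe sets changed at least 4-fold, and 27 and 16 changed at least 32-fold. The split depends on scaling. With each array centred on its median, which moved the median difference of all probe sets from -0.01 to 0.22, 1071 rose and 766 fell, so that 58.3% of calls were rises in place of 41.0%. The precision is limited by 2 arrays a group: with clone II replicates 1 and 2 and parental replicates 1 and 2 left out in turn, the risen probe sets numbered 201, 326, 175 and 194 and the fallen 545, 641, 239 and 379. Without both arrays of high GAPDH ratio 93 rose and 148 fell.

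**Figure D1:**
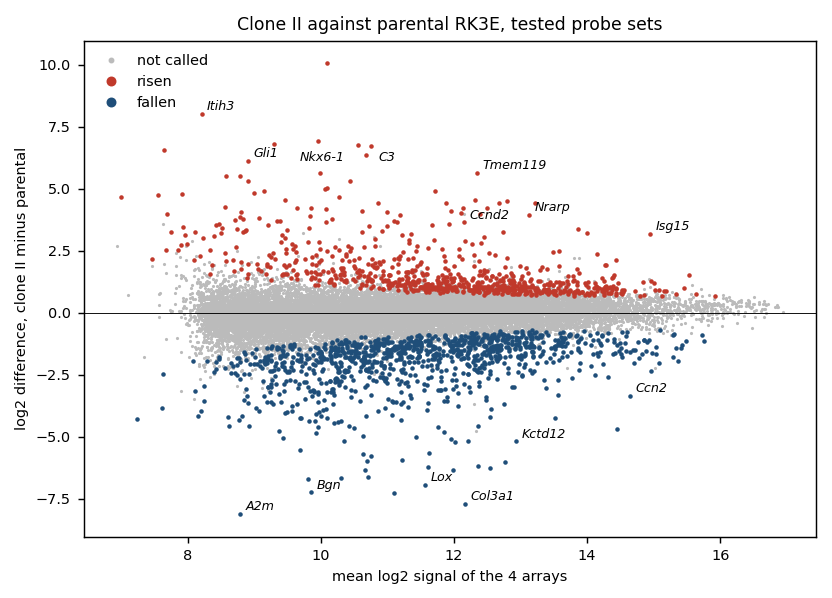
Log2 difference, clone II minus parental (vertical), against the mean log2 signal of the 4 arrays (horizontal), 1 point per tested probe set, red where risen, blue where fallen and grey where not called. Itih3, Nkx6-1 and C3 stand highest among labelled genes and A2m and Col3a1 lowest, and the unlabelled point near the top is a probe set with no gene symbol.

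The largest rises were led by Itih3, Gal, Nkx6-1 and C3, chosen for the size of the difference and for groups that do not overlap. Itih3, which encodes a heavy chain of the inter-alpha-trypsin inhibitor family that binds hyaluronan, had log2 signals of 12.29 and 12.17 on the clone II arrays and 3.63 and 4.76 on the parental arrays, a 262-fold rise (SE 0.57, adjusted p = 0.00021) that became 94.4-fold with 32 added. The neuropeptide gene Gal gave 13.10 and 12.34 on the clone II arrays and 4.59 and 7.19 on the parental arrays, 114-fold (0.00142), or 67.7-fold with 32 added. Nkx6-1, a homeobox gene known from pancreatic beta cells and ventral neural tube, gave 13.82 and 14.05 on the clone II arrays and 7.02 and 7.33 on the parental arrays, 108-fold (1.97e-05). The parental arrays of Gal lay far apart.

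C3, the central complement component, gave 14.64 and 13.58 on the clone II arrays and 6.99 and 7.80 on the parental arrays, 105-fold (log2 6.72, SE 0.50, adjusted p = 0.000231). The membrane protein genes Tmem132e and Tmem119 rose by log2 differences of 6.37 (6.31e-05) and 5.65 (1.97e-05). The cartilage collagen gene Col9a3 rose 32.7-fold (0.0022). Zfp423, a zinc finger gene of precursor cells, rose 45.3-fold on its brightest probe set (0.00251), or 28.6-fold with 32 added, while its 3 other tested probe sets gave -0.41, 0.01 and 0.54 and did not pass. All these calls were kept whichever 1 array was left out. Ntng1 and Rtp3 rose too: 46.3-fold for Ntng1 (24.6-fold with 32 added), with 11.01 and 11.68 on the clone II arrays and 7.74 and 3.88 on the parental arrays, and 49.8-fold for Rtp3, with 12.87 and 12.75 on the clone II arrays and 6.82 and 7.52 on the parental arrays. Ntng1 was not called without clone II replicate 2 (0.0598), and Rtp3 was not called without either clone II replicate (0.104 and 0.0817) or either parental replicate (0.159 and 0.103).

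Of the 15 genes of largest rise 10 had a promoter in the table, and of these Gal alone held the GLI consensus GACCACCCA, searched on both strands. Its 250 bases before the start, from RefSeq, assembly GRCr8, chr1:210084573-210084822, minus strand, are shown 5′ to 3′ with the match, on the reverse strand and beginning 150 bases before the start, in capitals:
Gal: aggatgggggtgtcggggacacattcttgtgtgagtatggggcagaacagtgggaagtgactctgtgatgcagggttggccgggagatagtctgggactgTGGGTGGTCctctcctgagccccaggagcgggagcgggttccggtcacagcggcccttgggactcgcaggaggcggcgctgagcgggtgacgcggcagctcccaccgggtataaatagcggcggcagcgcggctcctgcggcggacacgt
Over windows of 300 bases (250 before and 50 after the start) the letters stood in 4 of 449 genes that rose (0.891%), 1 of 513 that fell (0.195%), 29 of 8600 tested genes (0.337%) and 104 of 27457 promoters in all (0.379%). The other 3 that rose were Dapp1, Rrp1b and Tmem256, and the 1 that fell was Cltb. A match is a run of letters in this window and not a measured binding site.

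The largest falls were led by A2m, Col3a1, Bgn and Lox. A2m, a broad protease inhibitor, had log2 signals of 5.73 and 3.74 on the clone II arrays and 13.11 and 12.59 on the parental arrays, a 277-fold fall (SE 0.67, adjusted p = 0.0004), or 119-fold with 32 added. The fibrillar collagen gene Col3a1 gave 7.93 and 8.70 on the clone II arrays and 16.11 and 15.93 on the parental arrays, 209-fold lower (1.97e-05). Lox, whose product cross-links collagen, gave 8.21 and 7.98 on the clone II arrays and 15.22 and 14.85 on the parental arrays, 123-fold lower (1.97e-05). These falls were chosen by the same rule as the rises.

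The proteoglycan gene Bgn fell 151-fold (adjusted p = 3.17e-05), and Mgp, an inhibitor of calcification, 104-fold (0.00148). With 32 added these falls were 106-fold and 76.3-fold. Cav1, the main protein of caveolae, gave 8.12 and 7.45 on the clone II arrays and 13.87 and 13.08 on the parental arrays, 51.7-fold lower (0.000241). The receptor kinase gene Axl fell 37.2-fold (6.36e-05), the protease genes Prss23 and Htra1 60.4-fold (0.000231) and 35.8-fold (0.000388), and Myof, a gene of membrane repair, 46.4-fold (0.000467). Kctd12 fell 36.2-fold (1.97e-05). Every one of these calls was kept whichever 1 array was left out.

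**Figure D2:**
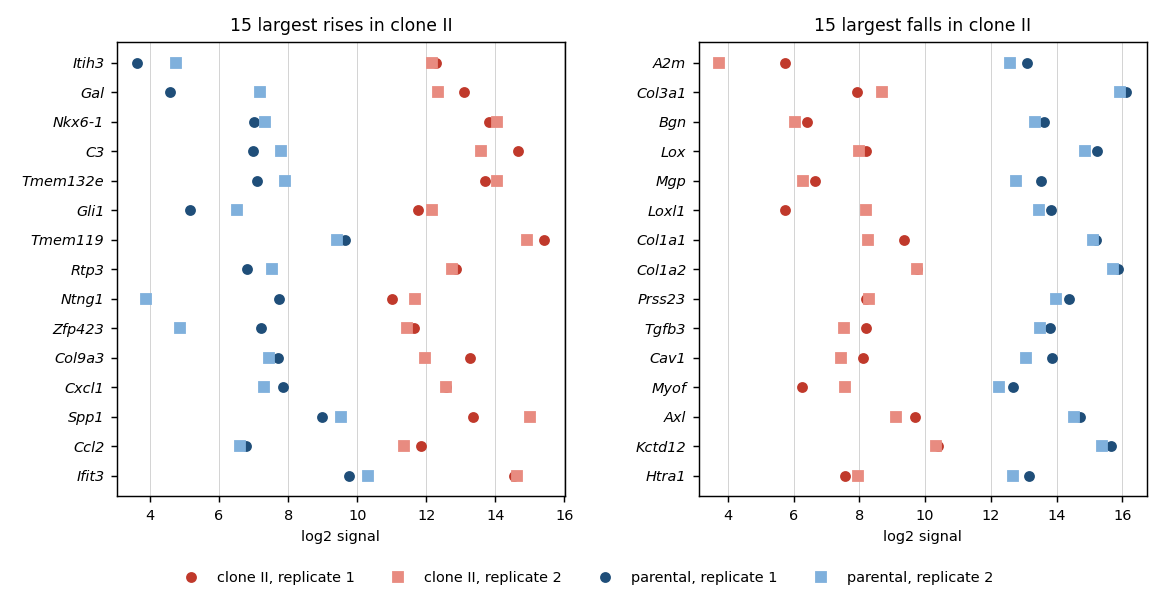
Log2 signal (horizontal) of the 15 genes of largest rise (left) and of largest fall (right) on each clone II array (red shades) and each parental array (blue shades). The rule chose genes whose groups do not overlap, and the parental arrays are far apart for Ntng1, Gal and Zfp423.

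Genes reported elsewhere as GLI targets moved both ways. Of 23 tested, 8 rose and 4 fell, where 5.32% of all tested genes rose and 6.41% fell. The median log2 difference was 0.65, against 0.06 over all genes. Spp1, which encodes osteopontin, had a mean log2 signal of 14.18 ± 1.16 (SD, n = 2) in clone II and 9.26 ± 0.39 (SD, n = 2) in parental cells, 30.3-fold higher (adjusted p = 0.000716). Ccnd2, the D-type cyclin that drives entry into the cycle, gave 13.82 and 14.15 on the clone II arrays and 10.32 and 10.34 on the parental arrays, 12.6-fold higher (0.000135). The clone II arrays were well above the parental arrays for both.

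Foxf1, a forkhead gene of gut and lung mesenchyme, rose 11.5-fold (0.000467), and Snai1, a repressor of E-cadherin, 6.54-fold (0.000761). The remaining risen targets were Prdm1 (log2 3.15), Igfbp6 (2.07) and Foxd2 (1.17), besides Hhip. Those that fell were 4: Mycn, a proto-oncogene of cerebellar precursors (log2 -2.24, adjusted p = 0.0357), Bmp4 (-2.17, 0.0224), the junction gene Jup (-1.93, 0.00249) and Nr2f2 (-0.98, 0.0189). Ccnd1 gave 1.65 and did not pass. The risen targets numbered 5, 7, 5 and 7 with clone II replicates 1 and 2 and parental replicates 1 and 2 left out in turn, and the fallen 2, 3, 1 and 1. Without both arrays of high GAPDH ratio 5 rose and 0 fell, and the median was -0.09. Of 22 genes known from Sonic hedgehog medulloblastoma, many of them in the lists above, 14 were tested. Among these 3 rose (Gli1, Ccnd2 and Hhip) and 2 fell (Eya1 and Mycn), against 5.32% and 6.41% of all tested genes. Gli1 and Hhip passed the filter through the GLI1 arrays, and all 3 rises are already given above.

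**Figure D3:**
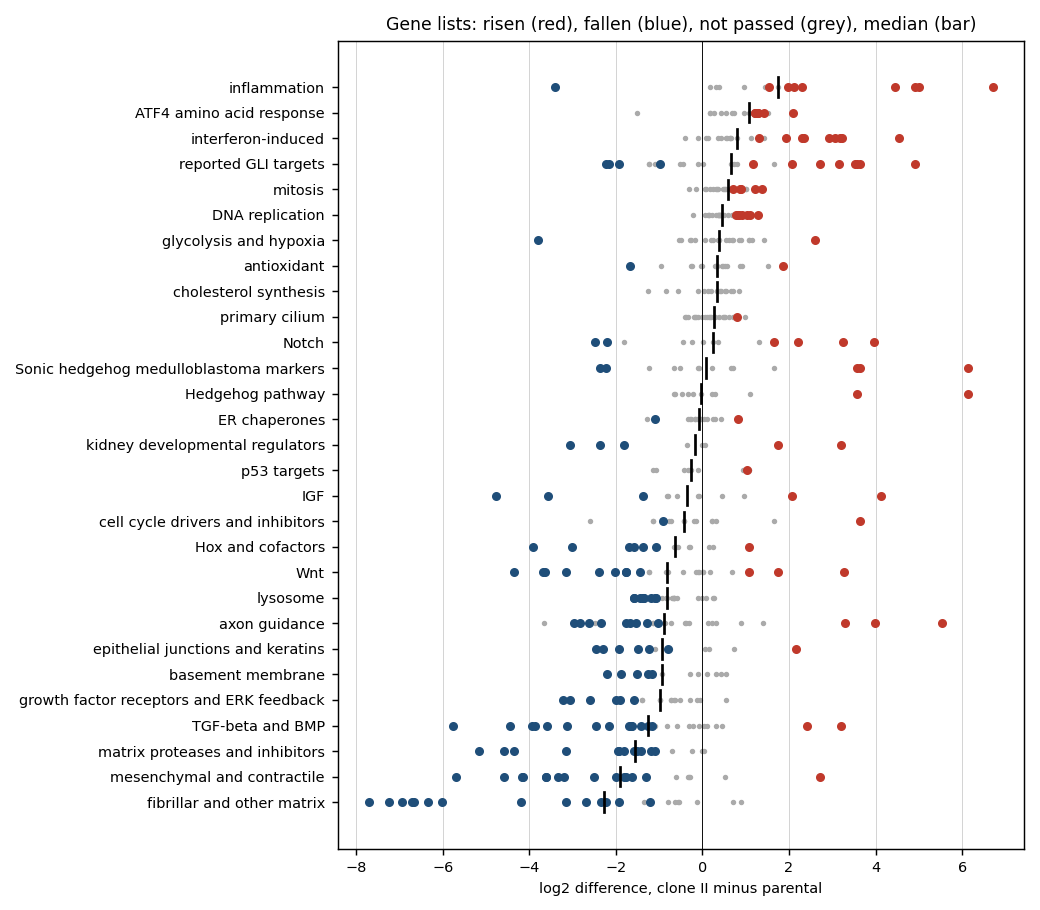
Log2 difference, clone II minus parental, of every tested gene of each list, red where risen, blue where fallen, grey where not passed, with a black bar at the list's median. Lists are ordered by median, from inflammation at 1.74 to fibrillar and other matrix at -2.28.

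Most of the tested extracellular matrix genes fell in clone II. Of 30 listed genes 22 were on the array and passed the signal filter. Of these 14 fell and 0 rose (0 also at an unadjusted p under 0.05, limma), with a median log2 difference of -2.28. Over all tested genes 6.41% fell and 5.32% rose. Lox and Loxl1 lay below the filter value of 8.33 on all GLI1 arrays and passed it through the parental arrays. Other called genes lay below it on part of the GLI1 arrays. Mgp did so on all but the array with no clone named, and Bgn on both clone II arrays. Fbln5 did so on clone II replicate 2 and the clone I array. The count and median do not describe the untested genes. Col1a1, the main chain of type I collagen, gave 9.37 and 8.28 on the clone II arrays and 15.21 and 15.11 on the parental arrays, 80.8-fold lower (adjusted p = 0.000222), and its partner chain Col1a2 gave 9.75 and 9.75 on the clone II arrays and 15.85 and 15.70 on the parental arrays, 65.2-fold lower (1.97e-05). A second probe set of Col1a1 gave -7.28. The fibronectin gene Fn1 fell 5.05-fold (0.000938) and Col5a2 3.80-fold (0.000667).

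The lysyl oxidase genes fell with the collagens they cross-link: Lox as above, Loxl1 102-fold (0.00251) and Loxl2 6.44-fold (0.00424). The clone II arrays of Loxl1 lay far apart, at 5.73 and 8.22, and its fall was 76.6-fold with 32 added. Sparc, a matricellular protein gene, fell 18.4-fold (0.014), but its clone II arrays differed among themselves, at 9.05 and 11.84. Sparc was not called without either parental replicate (0.0578 and 0.103). The type VI collagen genes were not called: Col6a1, Col6a2 and Col6a3 gave -0.13, 0.71 and 0.89, and no call was made for Fbn1 (-0.79), Eln (-0.63) or Vcan (-0.53). Leaving out 1 clone II or parental array left 11 to 13 falls, and leaving out both arrays of high GAPDH ratio left 8. These genes include markers of fibroblasts, and in such bulk samples fewer cells of a type and less RNA per cell cannot be told apart.

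Of 13 tested basement membrane genes 5 fell and 0 rose (median -0.94), against 6.41% and 5.32% of all tested genes. Among the falls were the laminin chain genes Lama4, 4.57-fold (0.00343), Lamb1, 2.87-fold (0.0186), and Lamc1, 2.24-fold (0.0308), and the nidogen gene Nid2, 3.69-fold (0.00405). The type IV collagen genes Col4a1 and Col4a2 gave 0.55 and 0.31 and did not pass. The falls numbered 2, 4, 1 and 2 with clone II replicates 1 and 2 and parental replicates 1 and 2 left out in turn, and without both arrays of high GAPDH ratio 0.

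Of 23 listed proteases of the matrix and their inhibitors 16 were tested. Among these 12 fell and 0 rose (median -1.55), against 6.41% and 5.32% of all tested genes. Serpine2 lay below the filter value of 8.33 on all GLI1 arrays, and Adamts5 on all but clone II replicate 2. Both passed it through the parental arrays. The count and median do not describe the untested genes. Timp3, a matrix-bound inhibitor of metalloproteases, gave 8.79 and 7.47 on the clone II arrays and 12.75 and 12.23 on the parental arrays, 20.6-fold lower (0.00262). Timp1 and Timp2 fell too, with log2 differences of -1.59 (0.0238) and -1.11 (0.0184). The aggrecan-cleaving protease gene Adamts5 fell 24.1-fold (0.00403), and the membrane collagenase gene Mmp14 2.85-fold (0.00994). Plat, which encodes tissue plasminogen activator, fell 3.52-fold (0.00319), and its inhibitor gene Serpine2 8.91-fold (0.00831). Proteases and inhibitors both stood among the falls. The falls numbered 9, 9, 4 and 9 with clone II replicates 1 and 2 and parental replicates 1 and 2 left out in turn, and 2 without both arrays of high GAPDH ratio.

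Several smooth muscle and contractile genes fell. Acta2, smooth muscle actin, gave 8.77 and 10.10 on the clone II arrays and 12.47 and 13.62 on the parental arrays, 12.2-fold lower (0.00396). The regulatory myosin light chain gene Myl9 fell 12.2-fold (0.00048), the calponin gene Cnn1 9.17-fold (0.00139) and the tropomyosin gene Tpm2 3.99-fold (0.00108). Ankrd1 and Ccn2, both known targets of the mechanical regulators YAP and TAZ, fell 17.7-fold (0.00078) and 10.1-fold (0.00318). Tagln, a marker of smooth muscle, had a mean log2 signal of 10.08 ± 2.13 (SD, n = 2) in clone II and 14.65 ± 0.49 (SD, n = 2) in parental cells, 23.8-fold lower (0.0107), with a wide gap between the clone II arrays. Tagln was not called without either parental replicate (0.0647 and 0.0849).

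Of 23 listed mesenchymal and contractile genes 20 were tested. Of these 14 fell and 1 rose (median -1.90), against 6.41% and 5.32% of all tested genes, the rise being Snai1. Cav1 and S100a4 lay below the filter value of 8.33 on all GLI1 arrays and passed it through the parental arrays. The count and median do not describe the untested genes. Vimentin (Vim) fell 3.40-fold (0.0253) and N-cadherin (Cdh2) 3.51-fold (0.00596), while Twist1, Zeb1 and Zeb2, regulators of the epithelial-mesenchymal transition, gave -0.60, -0.32 and -0.33 and did not pass. The falls numbered 9 with clone II replicate 1 left out, 7 and 8 with the first or the second parental array left out, and without both arrays of high GAPDH ratio 8. Among the 6 smooth muscle markers 3 of the 5 tested fell, Acta2, Tagln and Cnn1, while Myh11 (-0.19, 0.856) and Des (-0.14, 0.881) did not pass, nor did the calponin gene Cnn2 (-0.30, 0.49). The summed signal of the 6, carried in parental cells by Tagln, Acta2 and Cnn1, was 2485 and 5589 in clone II against 29840 and 50814 in parental cells.

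Epithelial genes gave no matching rise. Of 12 tested genes of junctions and keratins 6 fell and 1 rose (median -0.94), against 6.41% and 5.32% of all tested genes. The 1 rise is near that share. Jup, which encodes plakoglobin, fell 3.82-fold (0.00249), Dsp, desmoplakin, 2.35-fold (0.0113) and Ocln, occludin, 2.82-fold (0.0325), while Cldn1, a tight junction gene, rose 4.45-fold (0.0236). Epcam gave 0.14 and Krt8 -1.09 (0.0538) and did not pass. The falls numbered 2, 3, 1 and 1 with clone II replicates 1 and 2 and parental replicates 1 and 2 left out in turn, and without both arrays of high GAPDH ratio 0. The rise of Cldn1 was lost without clone II replicate 1 (0.15), parental replicate 1 (0.147) and parental replicate 2 (0.0886). The summed signal of 6 markers of simple epithelium was 1396 and 1295 in clone II against 1796 and 2312 in parental cells.

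In the TGF-beta and BMP pathways 14 of 28 genes fell and 2 rose (median -1.25), against 6.41% and 5.32% of all tested genes. Of 7 ligand genes 6 fell and Bmp7 rose, and of 5 receptor genes Acvr1 fell (-1.26, 0.0141) and 4 did not pass. Tgfb3 gave 8.19 and 7.55 on the clone II arrays and 13.80 and 13.49 on the parental arrays, 54.7-fold lower (0.000134), and Tgfb2 gave 9.77 and 10.72 on the clone II arrays and 13.24 and 13.48 on the parental arrays, 8.70-fold lower (0.0012). Tgfb1 fell 3.26-fold (0.00297). Ltbp1, which tethers latent TGF-beta to the matrix, fell 14.6-fold (0.00103), and Inhbb, an activin subunit gene, 21.9-fold (0.00687).

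BMP ligand genes moved in opposite directions. Bmp2 gave 9.39 and 8.40 on the clone II arrays and 12.67 and 13.01 on the parental arrays, 15.4-fold lower (0.00332), whereas Bmp7, needed in kidney development, gave 12.63 and 13.27 on the clone II arrays and 9.51 and 10.00 on the parental arrays, 9.14-fold higher (0.000514). Of the Id genes, which BMP signals induce, Id4 rose 5.30-fold (0.00408), Id2 and Id3 fell 2.25-fold (0.0319) and 3.09-fold (0.0185), and Id1 gave -1.42 and did not pass. The inhibitory Smad7 fell 12.1-fold (0.00267), with -0.81 on its other probe set, which did not pass. The receptor genes Tgfbr1 and Bmpr1a gave 0.11 and -0.23, and Smad2, Smad3 and Smad4 gave 0.45, -0.82 and -0.09, none called. The falls numbered 10, 9, 6 and 8 with clone II replicates 1 and 2 and parental replicates 1 and 2 left out in turn, and without both arrays of high GAPDH ratio 6. Both rises were kept in each case.

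Of 24 Wnt genes 9 fell and 3 rose (median -0.82), against 6.41% and 5.32% of all tested genes. Of 5 frizzled receptor genes 4 fell, the exception being Fzd6 (-0.80, 0.166), and the co-receptor genes Lrp5 and Lrp6 gave -1.24 (0.444) and -0.16 (0.822) and did not pass. Fzd1 gave 10.75 and 11.07 on the clone II arrays and 14.67 and 14.49 on the parental arrays, 12.7-fold lower (9.96e-05). Fzd4 fell 8.90-fold (0.00273) and Fzd8 5.21-fold (0.00473). The secreted antagonist gene Wif1 gave 14.64 and 14.12 on the clone II arrays and 11.73 and 10.48 on the parental arrays, 9.68-fold higher (0.00241), and Sfrp4, another antagonist, fell 20.4-fold (0.00385). The ligand gene Wnt4 rose 3.34-fold (0.00992). Beta-catenin (Ctnnb1) and the feedback target Axin2 gave 0.01 and 0.17 and did not pass. The falls numbered 6, 5, 2 and 4, and the rises 1, 3, 2 and 1, with clone II replicates 1 and 2 and parental replicates 1 and 2 left out in turn. Without both arrays of high GAPDH ratio they numbered 3 and 1, and the median was -0.11.

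Notch genes were split. Nrarp, a feedback target of Notch, gave 15.25 and 14.97 on the clone II arrays and 11.12 and 11.18 on the parental arrays, 15.5-fold higher (3.27e-05), and both of its other probe sets were called too. The ligand gene Dll4 rose 9.44-fold (0.00693) and the receptor gene Notch1 3.16-fold (0.0158). Dtx4, an E3 ligase gene of the pathway, rose 4.61-fold (0.00469). The ligand gene Jag1 fell 4.61-fold (0.00295) and the target Hey2 5.56-fold (0.00212), while Hes1 gave -0.45 and did not pass. In all, 4 of 13 rose and 2 fell (median 0.24), against 5.32% and 6.41% of all tested genes. Notch1 was not called without clone II replicate 1 (0.0921) or either parental replicate (0.106 and 0.0902), and Dtx4 was not called without parental replicate 1 (0.0551). Without both arrays of high GAPDH ratio 1 rose and 1 fell, and the median was -0.25.

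Of 27 axon guidance genes, which also act in epithelial and vascular branching, 9 fell and 3 rose (median -0.89). Over all tested genes 6.41% fell and 5.32% rose. Ntn1, the secreted cue netrin-1, gave 14.11 and 14.66 on the clone II arrays and 10.32 and 10.45 on the parental arrays, 16.0-fold higher (9.96e-05), with 0.57 on a second probe set that did not pass. Sema3b rose 9.78-fold (0.000376) and Ntng1 as above. Nrp2, a semaphorin and VEGF co-receptor gene, fell 7.09-fold (0.00212), and Unc5b, a netrin receptor gene, 6.18-fold (0.0114). The ephrin gene Efna5 fell 5.07-fold (0.00424). Unc5b was not called without clone II replicate 2 (0.0541) or parental replicate 1 (0.107), and Efna5 was not called without parental replicate 2 (0.053). The falls numbered 3, 5, 2 and 5 and the rises 3, 2, 3 and 3 with clone II replicates 1 and 2 and parental replicates 1 and 2 left out in turn, so that falls did not outnumber rises without clone II replicate 1 or parental replicate 1. With both arrays of high GAPDH ratio left out 1 fell and 3 rose.

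In the IGF list 2 of 12 genes rose and 3 fell (median -0.35), against 5.32% and 6.41% of all tested genes. The imprinted noncoding RNA gene H19 gave 12.97 and 12.39 on the clone II arrays and 8.06 and 9.07 on the parental arrays, 17.4-fold higher (0.000716), while its imprinted neighbour Igf2 gave -0.11 and did not pass. Igfbp2, an IGF carrier gene, gave 8.35 and 5.63 on the clone II arrays and 11.73 and 11.80 on the parental arrays, 27.4-fold lower (0.0076), and the adaptor gene Irs1 fell 11.8-fold (0.00473). The receptor gene Igf1r fell 2.60-fold (0.00873). Igfbp2 was not called without either parental replicate (0.0677 and 0.0595), and Irs1 was not called without parental replicate 1 (0.0647). Igf1r was not called without clone II replicate 1 (0.0598) or parental replicate 1 (0.096).

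Of 19 genes of growth factor receptors and ERK feedback 6 fell and 0 rose (median -0.97), against 6.41% and 5.32% of all tested genes. Dusp6, a phosphatase that acts on ERK, gave 10.23 and 10.68 on the clone II arrays and 13.63 and 13.73 on the parental arrays, 9.37-fold lower (0.000231), and both of its other probe sets were called too. The immediate early genes Fos and Egr1 fell 8.34-fold (0.0063) and 3.98-fold (0.0128), the inhibitor gene Spry2 6.02-fold (0.00403) and the HGF receptor gene Met 3.72-fold (0.0437). Spry4 and Etv5, which also respond to ERK, gave -0.63 and -0.29 and did not pass. The falls numbered 2 and 4 with parental replicate 1 or 2 left out, and without both arrays of high GAPDH ratio 2.

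Most of the tested inflammatory genes rose in clone II. Of 25 listed genes, all on the array, 15 passed the signal filter, and of these 8 rose and 1 fell (median 1.74). Over all tested genes 5.32% rose and 6.41% fell. C3, Ccl2 and Cxcl1 lay below the filter value of 8.33 on both parental arrays and passed it through GLI1 arrays. The filter can thus select genes that are high in clone II, and the count and median do not describe the whole list. The chemokine gene Cxcl1 gave 12.57 and 12.57 on the clone II arrays and 7.85 and 7.30 on the parental arrays, 31.9-fold higher (adjusted p = 0.00984), and Ccl2, which draws monocytes, gave 11.84 and 11.35 on the clone II arrays and 6.77 and 6.62 on the parental arrays, 29.9-fold higher (0.0114). Cxcl10, induced by interferon, gave 15.55 and 15.32 on the clone II arrays and 10.77 and 11.22 on the parental arrays, 21.7-fold higher (0.018). In all 3 the clone II arrays were close together and far above the parental arrays.

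Icam1, an adhesion molecule gene, gave 15.42 and 15.56 on the clone II arrays and 13.40 and 13.34 on the parental arrays, 4.35-fold higher (0.00148). Tnfaip3 and Nfkbia, feedback inhibitors of NF-kB, rose 4.93-fold (0.0122) and 3.95-fold (0.0492), and the NF-kB subunit gene Relb 2.88-fold (0.0382). C3, described above, is the eighth. Cxcl12, a homeostatic chemokine gene made by stroma, fell 10.5-fold (0.000726), from a mean of 14.18 ± 0.39 (SD, n = 2) in parental cells to 10.78 ± 0.30 (SD, n = 2). Vcam1 and Ccl5 gave 1.44 and 1.74 and did not pass. Icam1, C3 and Cxcl12 were called whichever 1 array was left out. Cxcl1 was not called without either parental replicate (0.0617 and 0.0723), and Ccl2 was not called without clone II replicate 1 (0.0709) or either parental replicate (0.0784 and 0.0723). Cxcl10 was not called without either clone II replicate (0.0788 and 0.0567) or either parental replicate (0.124 and 0.0847), and Tnfaip3 was not called without clone II replicate 1 (0.0699) or either parental replicate (0.0677 and 0.0886). Nfkbia was not called without clone II replicate 2 (0.21) or either parental replicate (0.266 and 0.111), and Relb was not called without either clone II replicate (0.161 and 0.106) or either parental replicate (0.174 and 0.169).

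Interferon-induced genes rose in part, 9 of 23 with 0 falls (0 also at an unadjusted p under 0.05, limma; median 0.81). Over all tested genes 5.32% rose and 6.41% fell. Isg15, a ubiquitin-like modifier gene, gave 16.61 and 16.46 on the clone II arrays and 13.30 and 13.41 on the parental arrays, 9.07-fold higher (0.00987). Ifit3 gave 14.54 and 14.62 on the clone II arrays and 9.76 and 10.32 on the parental arrays, 23.2-fold higher (0.0233). Tap1, the peptide transporter of antigen presentation, gave 13.73 and 13.85 on the clone II arrays and 11.64 and 11.24 on the parental arrays, 5.10-fold higher (0.000667). Psmb8 and Psmb9, immunoproteasome subunit genes, rose 7.54-fold (0.00408) and 8.30-fold (0.00438), Oasl 9.28-fold (0.0404) and Rsad2 3.83-fold (0.0207). The list also held genes with little difference: Ifit1, Mx1 and Irf7 gave 0.08, 0.12 and 0.37 and did not pass. Tap1 was called whichever 1 array was left out. Isg15 was not called without either parental replicate (0.0813 and 0.0624), and Ifit3 was not called without either clone II replicate (0.0877 and 0.0783) or either parental replicate (0.151 and 0.0964). Psmb9 was not called without parental replicate 1 (0.0525), and Oasl was not called without either clone II replicate (0.142 and 0.115) or either parental replicate (0.183 and 0.168). Rsad2 was not called without either clone II replicate (0.0983 and 0.0617) or either parental replicate (0.0813 and 0.133).

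Risen inflammation genes numbered 4, 5, 2 and 2, and risen interferon genes 5, 4, 2 and 3, with clone II replicates 1 and 2 and parental replicates 1 and 2 left out in turn. Without both arrays of high GAPDH ratio they numbered 2 and 1. The GLI1 arrays outside clone II were not alike in these genes. The median log2 difference of the inflammation list from the parental mean was 1.60 and 1.70 on the clone II arrays, 1.57 on the clone I array and 0.13 on the array with no clone named. For the interferon list it was 0.77 and 1.06, 1.45 and 0.75. That gap between the 2 other GLI1 arrays enters the spread of the model, and the immune cell markers Cd14, Csf1r and Aif1 gave -1.58, 0.36 and -0.19 in clone II against parental cells, none called.

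Promoter sequences of some risen genes of both lists are shown, with letters known from NF-kB and interferon response sites. Whether any regulator of these sites acted in clone II was not tested. The letters searched on both strands were GGG, any 2 bases and TTTCC for NF-kB, and GAAA, any 2 bases and GAAA for the interferon-stimulated response element (ISRE). The 250 bases before each start, from RefSeq, assembly GRCr8, are given 5′ to 3′ with matches in capitals. Cxcl1 (chr14:17479322-17479571, minus strand) and Tnfaip3 (chr1:15543980-15544229, minus strand) hold NF-kB letters, beginning 102 and 84 bases before the start in Cxcl1 and 67 and 55 in Tnfaip3:
Cxcl1: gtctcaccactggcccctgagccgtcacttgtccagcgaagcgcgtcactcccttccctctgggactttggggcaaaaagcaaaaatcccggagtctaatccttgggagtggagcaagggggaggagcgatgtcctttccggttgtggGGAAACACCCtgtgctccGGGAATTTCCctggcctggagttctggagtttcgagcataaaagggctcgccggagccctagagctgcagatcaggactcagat
Tnfaip3: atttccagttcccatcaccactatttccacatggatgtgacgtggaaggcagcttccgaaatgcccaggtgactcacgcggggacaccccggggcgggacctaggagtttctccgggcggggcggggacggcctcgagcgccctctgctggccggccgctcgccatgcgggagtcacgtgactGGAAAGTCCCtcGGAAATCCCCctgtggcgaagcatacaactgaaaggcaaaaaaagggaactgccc
Tap1 (chr20:4668544-4668793, minus strand) holds ISRE letters beginning 121 and NF-kB letters beginning 55 bases before the start, Ifit3 (chr1:241527076-241527325, plus strand) ISRE letters beginning 44 before it, and Cxcl10 (chr14:15988816-15989065, plus strand) ISRE letters beginning 243 before it:
Tap1: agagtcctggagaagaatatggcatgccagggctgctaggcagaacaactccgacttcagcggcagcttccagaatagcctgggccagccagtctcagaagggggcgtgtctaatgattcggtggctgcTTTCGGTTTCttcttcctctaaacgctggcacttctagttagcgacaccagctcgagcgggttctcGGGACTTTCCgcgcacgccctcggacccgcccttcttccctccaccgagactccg
Ifit3: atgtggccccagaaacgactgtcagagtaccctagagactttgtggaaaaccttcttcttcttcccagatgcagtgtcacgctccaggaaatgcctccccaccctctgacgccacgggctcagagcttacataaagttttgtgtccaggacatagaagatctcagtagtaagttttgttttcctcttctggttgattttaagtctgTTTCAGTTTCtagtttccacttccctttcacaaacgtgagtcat
Cxcl10: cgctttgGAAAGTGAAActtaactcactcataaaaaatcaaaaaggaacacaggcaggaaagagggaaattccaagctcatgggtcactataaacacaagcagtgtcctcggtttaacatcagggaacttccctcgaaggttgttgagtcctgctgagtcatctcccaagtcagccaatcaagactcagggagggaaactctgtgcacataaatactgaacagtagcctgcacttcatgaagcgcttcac
Over windows of 300 bases, NF-kB letters stood in 3 of 6 risen inflammation genes with a promoter in the table (Cxcl1, Tnfaip3 and Nfkbia), 3.12% of 449 risen genes, 0.39% of 513 fallen genes, 1.64% of 8600 tested genes and 1.51% of 27457 promoters. ISRE letters stood in 6 of 8 risen interferon genes (75.0%), 5.57% of risen, 5 of 513 fallen, 2.87% of tested genes and 3.77% of all promoters. These are descriptions of letters and not of binding. Genes of such lists can hold these letters often whether or not they rose. No share was computed for list members that did not rise, so the shares say nothing about the rise itself.

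**Figure D4:**
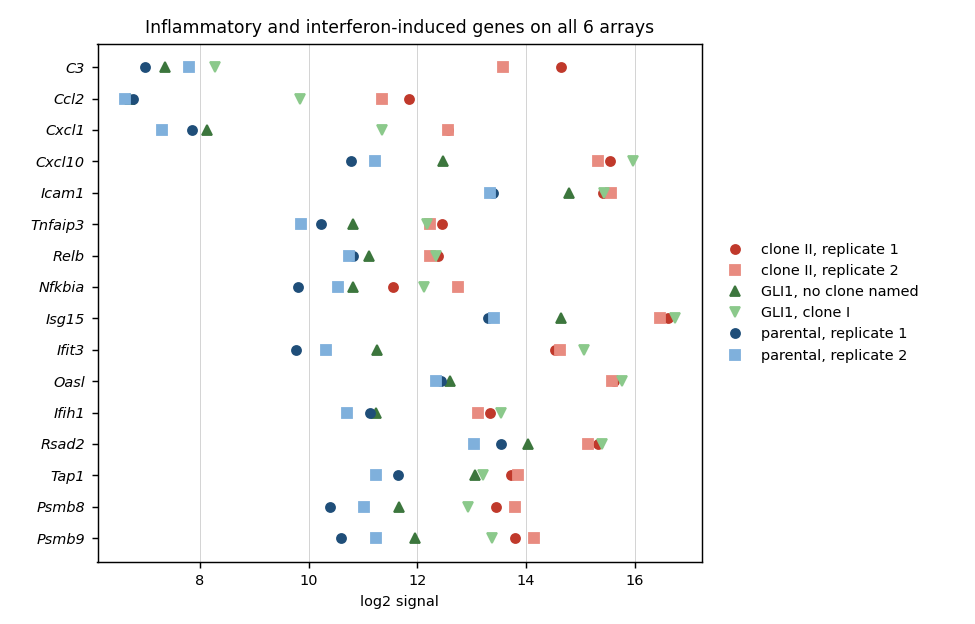
Log2 signal (horizontal) of called inflammatory and interferon-induced genes on clone II (red), the other GLI1 arrays (green) and parental cells (blue), 1 point per array. Cxcl10, Isg15 and Ifit3 are high on both clone II arrays and the clone I array and lower on the array with no clone named, and C3 is high on the clone II arrays alone.

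Some replication and mitosis genes rose by small amounts. Of 28 replication genes 7 rose and 0 fell (median 0.46; 14 and 0 at an unadjusted p under 0.05, limma), and of 26 mitosis genes 5 rose and 0 fell (median 0.59; 15 and 0). Among the called replication genes were the regulator E2f1, 2.43-fold higher (0.0427), and the origin factor gene Gins1, 2.13-fold (0.0111), and among the called mitosis genes the kinase gene Aurkb, 2.58-fold (0.016), and the phosphatase gene Cdc25b, 2.31-fold (0.0294). Mki67, the usual proliferation marker, gave 0.05 and Pcna 0.59 and did not pass. No mitosis gene, and at most 1 replication gene, was called once any 1 clone II or parental array was left out. Of 15 cyclins, cyclin-dependent kinases, their inhibitors and retinoblastoma family genes, Ccnd2 rose, as described above, and Rbl2 fell (log2 -0.92, 0.0471). The counts of these 15 genes alone are near the shares over all tested genes, 5.32% risen and 6.41% fallen. The inhibitor genes Cdkn1a and Cdkn2b gave -0.43 and -2.61 and did not pass. Rbl2 was not called without either clone II replicate (0.225 and 0.109) or either parental replicate (0.198 and 0.226).

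Of 19 genes of the ATF4 response to amino acid shortage 7 rose and 0 fell (median 1.07; 10 and 1 at an unadjusted p under 0.05). Over all tested genes 5.32% rose and 6.41% fell. Mthfd2, a mitochondrial folate enzyme gene, gave 13.21 and 12.61 on the clone II arrays and 10.62 and 11.03 on the parental arrays, 4.25-fold higher (0.00277), and was called whichever 1 array was left out. Asns, asparagine synthetase, rose 2.70-fold (0.0217), and Psat1 and Psph of serine synthesis 2.32-fold (0.0218) and 2.45-fold (0.0266). Atf4 itself gave 0.73 and Trib3 1.45 and did not pass. The rises numbered 2, 4, 1 and 2 with clone II replicates 1 and 2 and parental replicates 1 and 2 left out in turn, and 0 without both arrays of high GAPDH ratio.

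Of 23 lysosomal genes 9 fell by small amounts and 0 rose (median -0.82; 16 and 0 at an unadjusted p under 0.05). The cathepsin genes Ctsd and Ctsb fell 2.97-fold (0.00764) and 2.28-fold (0.00506), and Psap, a sphingolipid activator gene, 2.55-fold (0.0106). The falls numbered 5, 4, 0 and 2 with clone II replicates 1 and 2 and parental replicates 1 and 2 left out in turn, and 0 without both arrays of high GAPDH ratio. Glycolysis and hypoxia genes gave 1 rise (Hk2, hexokinase 2, 6.04-fold, 0.0212) and 1 fall (Ndrg1, 14.0-fold, 0.00424) of 23. Hk2 was not called without clone II replicate 1 (0.122) or either parental replicate (0.147 and 0.0705). Of 17 cholesterol synthesis genes 0 were called by limma, with 2 above and 2 below at an unadjusted p under 0.05. Of 29 genes of the primary cilium, the organelle of Hedgehog signalling, 1 rose (Ift57, 1.73-fold, 0.0416). The glycolysis and cilium counts lay below the shares over all tested genes, 5.32% risen and 6.41% fallen. Ift57 was not called without either clone II replicate (0.171 and 0.154) or either parental replicate (0.233 and 0.158).

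The remaining metabolic and stress lists gave at most 1 rise and 1 fall each. Over all tested genes 5.32% rose and 6.41% fell, so these counts are not read as results about the lists. Of 11 p53 targets the apoptosis gene Bbc3 rose 2.03-fold (0.0273), of 18 chaperones of the endoplasmic reticulum Sdf2l1 rose 1.76-fold (0.038) and Hsp90b1 fell 2.13-fold (0.0195), and of 19 antioxidant genes Sod2 rose 3.66-fold (0.0145) and Gpx1 fell 3.18-fold (0.00403). None of these 5 calls was kept whichever 1 array was left out. Bbc3 was not called without either clone II replicate (0.158 and 0.0762) or either parental replicate (0.136 and 0.157), and Sdf2l1 was not called without either clone II replicate (0.226 and 0.0615) or either parental replicate (0.206 and 0.159). Hsp90b1 was not called without clone II replicate 1 (0.126) or either parental replicate (0.124 and 0.111), and Sod2 was not called without either clone II replicate (0.073 and 0.0552) or either parental replicate (0.119 and 0.0641). Gpx1 was not called without parental replicate 1 (0.0514).

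Of 4 tested HoxA cluster genes in the Hox list, homeobox genes that mark position along the body axis, 3 fell. Hoxa5 gave 9.85 and 9.42 on the clone II arrays and 13.35 and 13.76 on the parental arrays, 15.2-fold lower (0.000407), and Hoxa9 gave 11.54 and 11.27 on the clone II arrays and 14.49 and 14.33 on the parental arrays, 8.03-fold lower (0.000344). Hoxa10 fell by a log2 difference of -1.08 (0.0219), and Hoxa7 gave -0.31 (0.693) and did not pass. Hoxa10 was not called without clone II replicate 2 (0.118) or either parental replicate (0.153 and 0.118). The cofactor genes Meis1 and Meis2 fell, with log2 differences of -1.59 (0.00375) and -1.69 (0.00287), and Pbx2 rose 2.12-fold (0.00907). Of 17 Hox and cofactor genes 6 fell and 1 rose (median -0.64), against 6.41% and 5.32% of all tested genes. The falls numbered 5, 4, 3 and 4 with clone II replicates 1 and 2 and parental replicates 1 and 2 left out in turn, and 2 without both arrays of high GAPDH ratio. Pbx2 was not called without clone II replicate 1 (0.0625) or either parental replicate (0.0714 and 0.0774).

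Regulators of kidney development were split, with 2 of 8 higher and 3 lower, against 5.32% and 6.41% of all tested genes. Foxc1 fell 8.32-fold (0.000716), Eya1, of the metanephric mesenchyme, 5.12-fold (0.0078) and Emx2 3.52-fold (0.0219), while Bmp7 and Wnt4 rose as given above. Wt1, Sall1 and Gata3 gave -0.35, 0.05 and -0.01 and did not pass. The median of -0.18 turned to 0.05 with median centring and 0.03 with quantile normalization. Eya1 was not called without parental replicate 1 (0.0919), and Emx2 was not called without either clone II replicate (0.0637 and 0.0928) or either parental replicate (0.144 and 0.118). Wnt4 was not called without clone II replicate 1 (0.0721) or parental replicate 2 (0.0774).

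Clone II was then set against the other 2 GLI1 arrays, 1 titled clone I and 1 whose label does not say which line it came from, clone II included. Their spread may join differences between lines with differences between arrays. Of 18625 probe sets 24 were called (0.129%), 3 higher (0.0161%) and 21 lower in clone II (0.113%), by limma. At gene level 3 of 10240 were higher (0.0293%) and 15 lower (0.146%), and the 3 were C3, Ogn and Dtx4. C3 had log2 signals of 14.64 and 13.58 in clone II against 7.35 and 8.28 on the other GLI1 arrays, 78.7-fold higher (log2 6.30, SE 0.50, adjusted p = 0.00722), and the parental arrays, at 6.99 and 7.80, were close to the latter. Ogn, a small proteoglycan gene of connective tissue, gave 11.78 and 11.63 in clone II against 7.72 and 7.74 on the others, 15.8-fold higher (0.00177), with parental cells above both at 14.03 and 13.83. Dtx4 gave 11.57 and 11.79 and 8.47 and 8.29, 9.84-fold higher (0.0157), with parental cells between them at 9.29 and 9.65.

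Most calls were lower in clone II. A2m gave 5.73 and 3.74 in clone II against 9.24 and 10.28 on the other GLI1 arrays, 32.5-fold lower (0.0436), and Bgn gave 6.42 and 6.05 on clone II, 7.28-fold lower (0.0371). Both had fallen against parental cells. Pou3f1, a POU factor gene of neural and epidermal cells, gave 9.03 and 9.64 on clone II, 13.80 and 12.80 on the others and 5.18 and 4.15 on parental cells, so that clone II lay between them. Ccnd2 was also between, at 13.82 and 14.15 against 16.33 and 15.74 (4.14-fold lower, 0.0371).

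Krt8, a keratin gene of simple epithelia, gave 9.07 and 9.23 on clone II, 12.06 and 12.57 on the other GLI1 arrays and 10.08 and 10.40 on parental cells, 8.99-fold lower in clone II than in the others (0.0157). The imprinted gene Phlda2 was 18.3-fold lower (0.0371), Rpp25 26.6-fold (0.0157), Flrt1 16.6-fold (0.0436) and Cyp1b1 8.76-fold (0.0436). The actin-binding gene Ablim1 and the cathepsin gene Ctsz were lower 7.29-fold (0.0371) and 5.02-fold (0.0403). Summed over 6 markers, simple epithelium gave 7334 and 8559 on the other GLI1 arrays. These calls rest on few arrays. Left out in turn, clone II replicate 1, clone II replicate 2, parental replicate 1, parental replicate 2, other GLI1 replicate 1 (no clone named) and other GLI1 replicate 2 (clone I) gave 3, 2, 2, 2, 1 and 50 probe sets higher and 7, 1, 1, 1, 0 and 44 lower. Ogn was called in each case, and C3 in each but that without the array with no clone named.

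**Figure D5:**
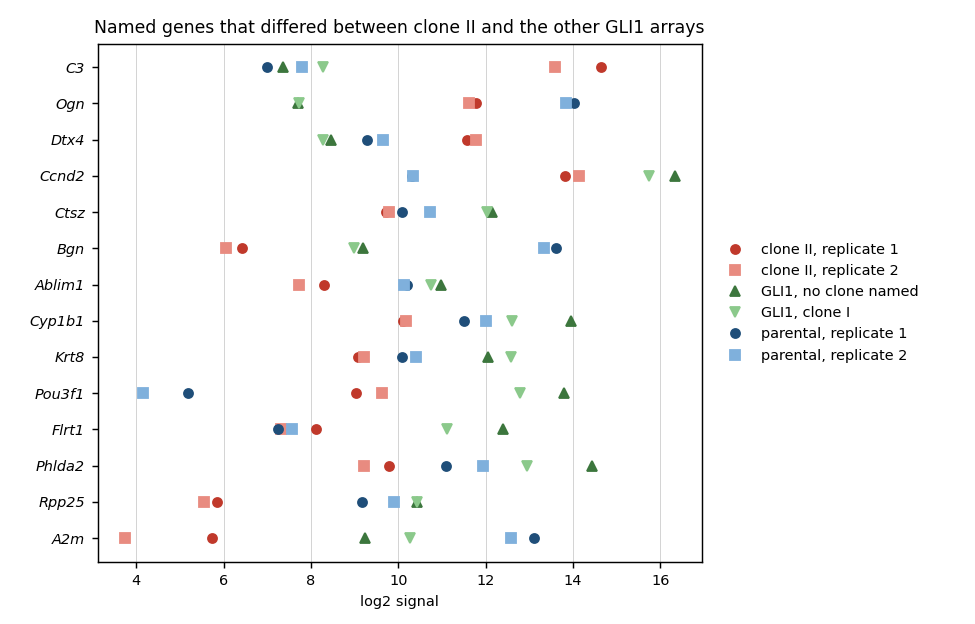
Log2 signal (horizontal) on each of the 6 arrays, clone II in red, other GLI1 in green and parental in blue, for genes called in the comparison of clone II with the other GLI1 arrays. C3, Ogn and Dtx4 are higher on the clone II arrays than on either other GLI1 array, and Krt8, A2m, Bgn, Pou3f1 and Ccnd2 are lower.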

How the data were processed

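RNA of GLI1 clone II (2 arrays), parental RK3E (2) and other GLI1-transformed cells (2 arrays, 1 titled clone I and 1 with no clone named) was labelled as biotin cRNA and hybridised to 1-colour rat arrays, per the labels' protocols. What was deposited is a linear intensity value, for each probe set and array, made with MAS5 and scaled to 1 trimmed mean per array, per the submitters' processing notes and the values. Neither the MAS5 version nor a genome build is given in the sources used here. Detection calls were not used. The labels call the arrays biological replicates without saying whether cultures were separate, so a p-value reflects the spread between these arrays only, which may be technical. No 2 arrays shared over 16 identical values.

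Signals under 1 were set to 1 and the log2 of the deposited intensity was taken. Of 31099 probe sets 57 controls were left out, and those with a mean log2 over 6 arrays above the 40th percentile (8.33) were tested, 18625 in all. A gene dim in 1 group can thus pass through the arrays of another. List counts and medians do not describe untested genes. limma 3.58.1 (R 4.3.3) fitted 3 groups with an intensity trend and 3 residual degrees of freedom, two-sided, with Benjamini-Hochberg adjustment and a threshold of 0.05; genes under it are called, and only these "rose" or "fell". Intervals are 95%, and folds are 2 raised to the size of the log2 difference. Procedures were tested on simulated data, where most 2-fold changes were missed and false calls exceeded the nominal share, so a gene that did not pass may still differ. Replicate numbers were not taken to pair arrays: deviations of same-numbered arrays correlated at 0.32 (clone II and parental), 0.10 and 0.07.

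Of 31042 probe sets 20826 had 1 symbol, 436 several and 9780 none; 20758 were matched to RefSeq genes of GRCr8 and 68 kept the table's symbol. A gene was represented by its brightest probe set (10240 genes). Other tested probe sets existed for 39 of the 199 named genes, with none called in the opposite direction. Named genes were those of the Hedgehog list, the 15 largest rises and falls with non-overlapping arrays and the brighter group above the 60th percentile, up to 8 each way against the other GLI1 arrays, and up to 4 called genes per list plus 2 of the rarer direction; 66 were added after their values were seen. The members, lists and rules were chosen with earlier results of these data known. The GLI motif was planned, the NF-kB and ISRE motifs were chosen after values were seen, and 145 named genes had a RefSeq promoter. Alternatives covered scaling, filter, added constant, trend, replicate block, probe set and left-out arrays. Some genes of the pathway are not reported here.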

Additional observations from a re-analysis of the deposited data

Results flagged for a closer look

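The 14 named genes that passed limma's test of clone II against the remaining GLI1 arrays are listed because groups of the same transformed kind differ; each value is a log2 difference, clone II minus the others, of 2 arrays against 2. Higher in clone II were C3 (6.30, adjusted p = 0.00722), Ogn (3.98, adjusted p = 0.00177) and Dtx4 (3.30, adjusted p = 0.0157). Lower in clone II were A2m (-5.02, adjusted p = 0.0436), Rpp25 (-4.73, adjusted p = 0.0157), Phlda2 (-4.19, adjusted p = 0.0371), Flrt1 (-4.05, adjusted p = 0.0436), Pou3f1 (-3.96, adjusted p = 0.0436) and Krt8 (-3.17, adjusted p = 0.0157). Also lower were Cyp1b1 (-3.13, adjusted p = 0.0436), Ablim1 (-2.87, adjusted p = 0.0371), Bgn (-2.86, adjusted p = 0.0371), Ctsz (-2.33, adjusted p = 0.0403) and Ccnd2 (-2.05, adjusted p = 0.0371).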

How the results depend on the processing

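Between clone II and parental cells the counts of risen and fallen probe sets, 743 and 1069, stayed within 1.5 times under median centring (1071 and 766), quantile normalization, an added 32, no filter, a 60th percentile filter and a 2-fold minimum. Without the intensity trend 361 rose, and with the replicate block 1116 rose and 1421 fell. Without both arrays of high GAPDH ratio 93 rose and 148 fell. With 1 array left out the risen numbered 175 to 901 and the fallen 239 to 1258. Against the other GLI1 arrays, 3 higher and 21 lower became 11 and 26 with median centring, 5 and 13 with quantile normalization, 3 and 8 with no filter, 1 and 3 with the 60th percentile filter, 3 and 1 without the trend, 22 and 67 with the replicate block, and 3 and 4 without both arrays of high GAPDH ratio; leaving out 1 array gave 1 to 50 higher and 0 to 44 lower. The replicate block changed none of the 185 called named genes, and its numbers are not taken as pairs. Stk36 turned to 0.0069 with median centring and 0.28 without both arrays of high GAPDH ratio, and ran from -0.53 to 0.093 with 1 array left out. Kif7 turned to 0.20 and 0.017, and ran from -0.18 to 0.12. Flrt1, in clone II against parental cells, turned to -0.26 without both, and ran from -0.10 to 0.70. The cause was not tested. Of the 185 called genes 76 were called whichever 1 array was left out, and 67 without both arrays of high GAPDH ratio. Precision is limited by 2 arrays a group.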

Other observations

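Some probe sets of large change have no gene symbol in the table used. 1368816_at had log2 signals of 14.86 and 15.39 on the clone II arrays and 6.88 and 3.23 on the parental arrays (adjusted p = 0.00069, limma), with parental arrays dim and far apart, and rose 453-fold with 32 added to each signal. 1393064_at rose 121-fold, and 1394109_at and 1377795_at fell 97.8-fold and 74.8-fold. Sox2, a gene of neural precursors, lay below the signal filter and was not tested: its log2 signal was 7.62 and 6.27 on the clone II arrays, 3.89 and 6.99 on the parental arrays, and 12.33 and 12.65 on the other GLI1 arrays. The summed signal of 9 neural markers was 4520 and 4253 on clone II, 7933 and 8272 on parental cells, and 12554 and 11920 on the other GLI1 arrays. Sox2 and Rbfox3 carried the sum on the other GLI1 arrays, where Nes, Map2 and Tubb3 were lower than in parental cells, Nes at signals of 1264 and 1659 against 2991 and 2600.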
